A study of Mus musculus with 12 samples.

Results

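Among 12 RNA sequencing libraries of mouse LSK cells, 8 carried a Yy1-/- label, and these 8 did not hold the same amount of Yy1 RNA. Each Yy1 count was scaled by the library's summed count to CPM (counts per 1e6), and libraries with 4 CPM or more (3 libraries, called residual here) were compared with those under 2 CPM (5 libraries, called near-absent) across all other genes. The residual libraries were Yy1-/- replicates 3 and 4 and Yy1-/- Smc3+/- replicate 3. The near-absent libraries were Yy1-/- replicates 1 and 2 and Yy1-/- Smc3+/- replicates 1, 2 and 4. Both classes were defined from the measured Yy1 counts and are not groups of the study, so no difference in Yy1 itself is tested or used as support below.

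LSK cells are the lineage-negative, Sca1+ and c-Kit+ cells of bone marrow, a fraction rich in blood stem cells and multipotent progenitors. The series has 4 libraries of each of 3 genotypes, Yy1+/+ (wild type), Yy1-/- and Yy1-/- Smc3+/-, made from the RNA of sorted cells with SMART-Seq V4, a low-input full-length cDNA kit that does not mark the strand. All 8 libraries compared here share the Yy1-/- label, and 4 of them are also labelled heterozygous for Smc3, a gene for one of the subunits that form the cohesin ring. The driver or agent that removes Yy1, the age and sex of the mice, the number of animals per library and any day or batch are not given in the sources used here, and nothing says that replicates came from separate animals, so p-values measure the spread between these libraries. Genotype names below are those of the labels.

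Yin Yang 1, the protein encoded by Yy1, is a zinc finger factor that binds DNA and can activate or repress transcription. It binds at many promoters and also at enhancers, and it has been linked to chromatin loops between them. An LSK population contains cells on the way to erythroid, megakaryocytic, myeloid and lymphoid fates, so its RNA holds low amounts of the genes of several lineages. In bulk RNA, fewer cells of a type and less RNA per cell cannot be told apart, and this holds for every lineage gene below and for Yy1.

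Yy1 was counted 223, 511 and 172 times in the residual libraries, which is 4.92, 12.5 and 4.39 CPM. The near-absent libraries had 16, 50, 35, 34 and 38 counts, or 0.363, 0.969, 0.765, 0.806 and 0.983 CPM, and the 4 Yy1+/+ libraries had 35.9 to 37.9 CPM. Library values throughout follow this order: for the residual class Yy1-/- replicates 3 and 4, then Yy1-/- Smc3+/- replicate 3, and for the near-absent class Yy1-/- replicates 1 and 2, then Yy1-/- Smc3+/- replicates 1, 2 and 4. As a share of the Yy1+/+ mean, the residual libraries lay between 12.0% and 34.1% and the near-absent ones between 0.991% and 2.68%. The library just inside the upper threshold was Yy1-/- Smc3+/- replicate 3, and the one nearest below it was Yy1-/- Smc3+/- replicate 4 at 0.983 CPM, so no library lay between 0.983 and 4.39 CPM. Counting error at these depths was small against that gap: the exact 95% intervals reached 1.35 CPM at most in the near-absent class and started at 3.76 CPM in the residual class. They take in counting error alone, since amplified reads that carry no molecular identifier can be copies of 1 molecule. The deposited tables count Yy1 per gene and not per exon, so they do not show which part of the transcript the reads came from.

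**Figure D1:**
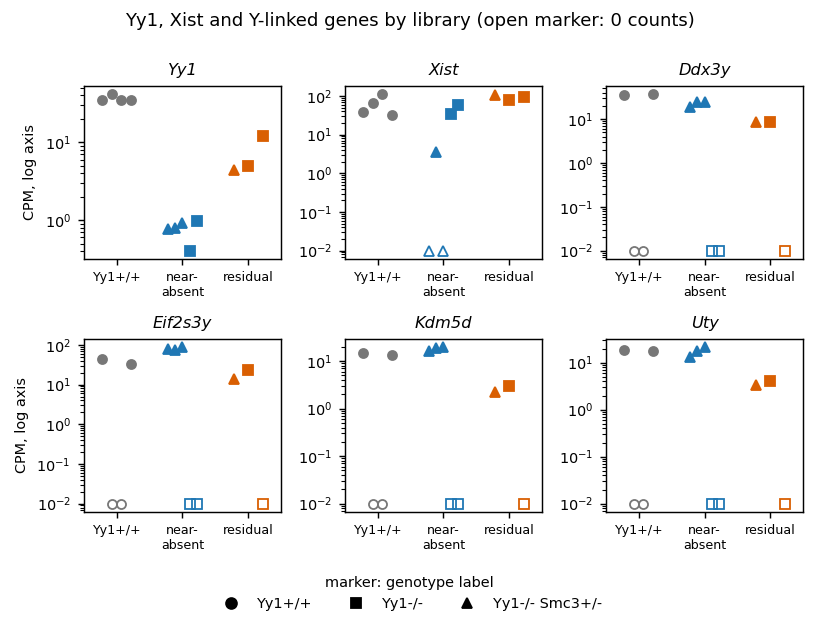
Level of Yy1, Xist and 4 Y-linked genes in each of the 12 libraries, in CPM scaled with TMM factors on a log axis, by class on the horizontal axis; marker shape gives the genotype label and an open marker 0 counts. The residual libraries lie between both other classes for Yy1, and residual Yy1-/- replicate 3 and Yy1-/- Smc3+/- replicate 3 hold reads of both Xist and the Y-linked genes.

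The 12 libraries had 38671354 to 69086104 summed counts, with 39167210 to 45285633 in the residual and 38671354 to 51587192 in the near-absent class, and 17214 to 20005 genes had at least 1 count. Some libraries stood apart before any comparison was made. Yy1-/- replicates 1 and 2, both near-absent, held macrophage RNA at levels no other library reached, with C1qb, a complement subunit made by tissue macrophages, at 2202 and 1524 CPM against 9.28 to 459 in the other 6 Yy1-/- labelled libraries. On the first principal component of the 8 libraries, with 29.4% of the variance, Yy1-/- replicate 1 lay at 132.4 and replicate 2 at 43.8, and the others between -48.9 and 5.6. On the second, with 17% of the variance, the residual libraries lay at -25, -28.1 and -67.6. The near-absent ones lay at -42.5, 33.2, 54.3, 60.3 and 15.5 in the order above, so only Yy1-/- replicate 1 fell among the residual libraries there.

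Sex-linked RNA also differed between libraries, with no overlap between the classes for Xist and with overlap for Y-linked genes. Xist, which is made from an inactive X chromosome, was at 79.3, 91.9 and 105 CPM in the residual libraries and at 33.9, 58.9, 0, 3.56 and 0 CPM in the near-absent ones. Ddx3y, a Y-linked helicase gene, was at 8.57, 0 and 8.52 CPM in the residual and 0, 0, 18.5, 25 and 24.9 CPM in the near-absent libraries. Residual Yy1-/- replicate 3 and Yy1-/- Smc3+/- replicate 3 therefore held both kinds of RNA, as did Yy1+/+ replicates 1 and 4, with Xist at 39.1 and 31.5 CPM and Ddx3y at 36.1 and 38.3 CPM. Among the Yy1-/- Smc3+/- libraries the single residual one was the only one with Xist above 3.56 CPM, so within that genotype the class and the sex-linked reads cannot be told apart. Over both genotypes Xist was also higher in every residual than in every near-absent library (edgeR adjusted p = 0.556), and no fit held a term for it. Near-absent Yy1-/- replicates 1 and 2 and residual Yy1-/- replicate 4 had Xist and no Ddx3y counts.

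The sort markers did not separate the classes. Kit, which encodes c-Kit, was at 134, 239.6 and 177 CPM in the residual and 99.9, 226, 226, 371 and 193 CPM in the near-absent libraries, all below the 429.6 to 1002 CPM of Yy1+/+. Ly6a, the gene of Sca1, was at 218, 178 and 148 against 379, 224, 234, 196 and 327 CPM, with 154 to 229 CPM in Yy1+/+. The classes overlapped for both genes, and neither passed the test (edgeR adjusted p = 0.963 and 0.415). Cd34, a progenitor marker, was at 943 to 1151 CPM in the residual, 884 to 997 CPM in the near-absent and 911 to 1050 CPM in the Yy1+/+ libraries, with similar ranges in all 3. Yy2, a close relative of Yy1, was at 7.68, 10.8 and 8.88 CPM in the residual and 5.71, 11.9, 3.07, 6.59 and 7.67 CPM in the near-absent libraries, against 1.87 to 2.92 CPM in Yy1+/+. Its classes overlapped (adjusted p = 0.901). Smc3 was at 240.0 to 309 CPM in the residual and 199 to 343 CPM in the near-absent libraries, and its classes overlapped as well (adjusted p = 0.889). By label, Smc3 was at 251, 343, 309 and 284 CPM in Yy1-/- Smc3+/- replicates 1 to 4 and at 199, 271, 304 and 240.0 CPM in Yy1-/- replicates 1 to 4, so the gene total did not set the Smc3+/- libraries lower.

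Few genes passed the test between the classes. With edgeR's quasi-likelihood test, a term for the genotype label and Benjamini-Hochberg adjustment over 16272 genes, 12 genes had an adjusted p under 0.05 (0.0737% of those tested), 6 of them higher (0.0369%) and 6 lower (0.0369%) in the residual class. Their adjusted p lay between 0.0359 and 0.0499, all near the threshold. At an unadjusted p under 0.05, 607 genes were higher (3.73%) and 839 lower (5.16%), together 8.89%. DESeq2 called 187 higher (1.18% of 15908 genes with an adjusted p) and 277 lower (1.74%), and its calls included all 12. In 9 of the 12 the 3 residual and 5 near-absent libraries did not overlap, which was the case for 5.53% of all genes tested, and all 12 pointed the same way in the Yy1-/- and in the Yy1-/- Smc3+/- libraries. The calls depended on which libraries were in the fit more than the fold changes did. With 1 of the 8 libraries left out the log2 fold change of Sfxn1 was 1.25 to 1.32, of Hmgb3 1.31 to 1.48, of Cd86 -2.02 to -1.73 and of Rhag, the widest of the 12, 3.89 to 4.91. None of the 12 kept an adjusted p under 0.05 without Yy1-/- replicate 1, 2 or 4 or without Yy1-/- Smc3+/- replicate 1 or 2. Without Yy1-/- replicate 3 only Rhag and Nkg7 did, and without Yy1-/- Smc3+/- replicate 3 or 4 it was 8 of the 12 in each case. Over these fits the adjusted p of the 12 reached 0.202 at most. Fits that leave out 1 of the 8 libraries gave 0 to 8 higher and 0 to 61 lower genes, with the highest of both counts when Yy1-/- Smc3+/- replicate 3 was left out.

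**Figure D2:**
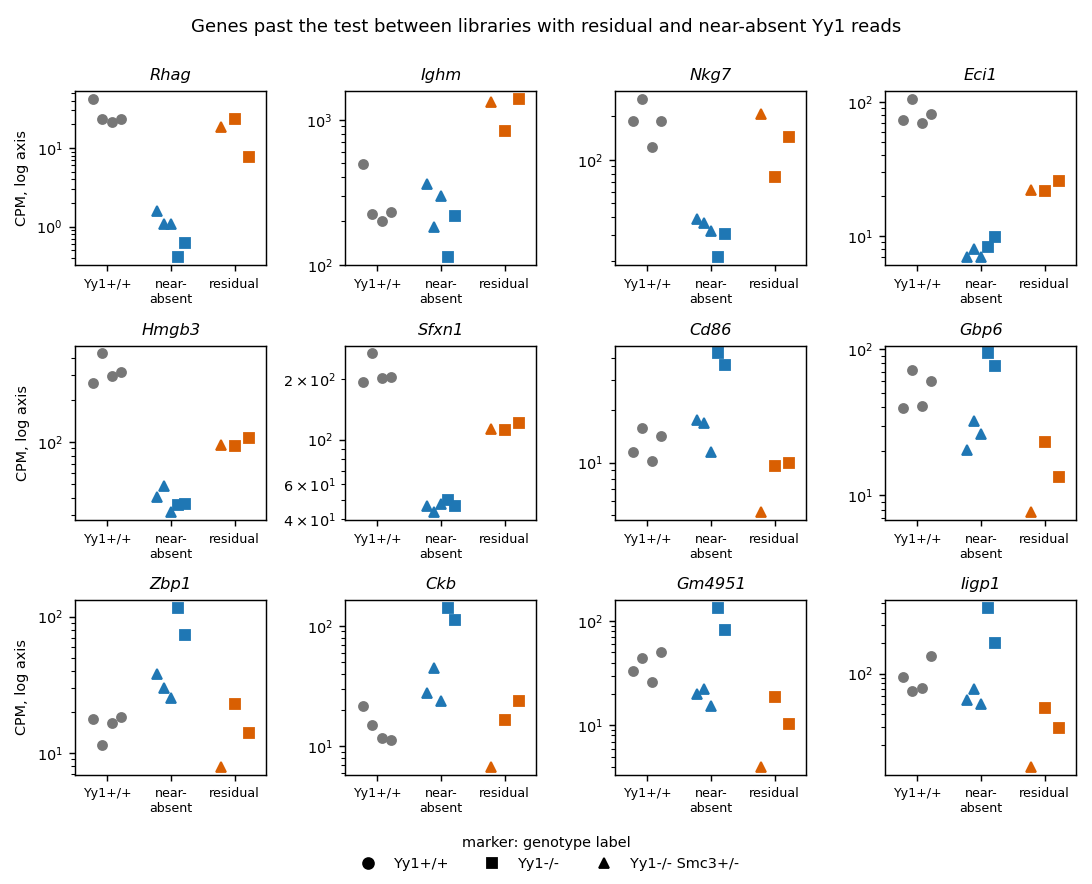
The 12 genes past the test, 1 panel each, as CPM scaled with TMM factors in every library on log axes; orange marks the residual, blue the near-absent and grey the Yy1+/+ libraries, and the marker shape gives the genotype label. Rhag, Nkg7, Ighm, Sfxn1, Hmgb3 and Eci1 are higher in all 3 residual than in all 5 near-absent libraries, Zbp1, Iigp1 and Cd86 are lower in all 3, and Gbp6, Ckb and Gm4951 overlap.

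The 6 genes that were higher in the residual class belong to different functions: 2 mitochondrial proteins, a red cell membrane protein, a chromatin protein, a cytotoxic granule protein and an immunoglobulin chain. Sfxn1 (chromosome 13, 54071869 to 54108342 on GRCm38) encodes a serine transporter of the inner mitochondrial membrane. Its level was 112, 122 and 113 CPM in the residual libraries, 49.7, 46.8, 46.5, 43.4 and 47.7 CPM in the near-absent and 194, 269, 203 and 206 CPM in the Yy1+/+ libraries. Each class was narrow, and the residual libraries sat between both others without touching either. The log2 fold change, residual over near-absent, was 1.29 ± 0.12 SE (edgeR adjusted p = 0.0359), and it stayed between 1.12 and 1.32 over 19 alternatives. The mean reached 53% of the Yy1+/+ mean in the residual and 21.5% in the near-absent class.

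Rhag (chromosome 17, 40811126 to 40840754) encodes the Rh-associated glycoprotein of the red cell membrane. It was at 23.4, 7.73 and 18.3 CPM in the residual libraries and at 0.406, 0.611, 1.59, 1.07 and 1.09 CPM in the near-absent ones, and at 42.0, 23.4, 21.5 and 23.5 CPM in Yy1+/+. The lowest residual library, Yy1-/- replicate 4, was also the one with the most Yy1, and it still lay above every near-absent library. The log2 fold change was 4.47 ± 0.46 SE (edgeR adjusted p = 0.0370), and with the level of Y-linked genes as a further term it was 4.23 with an adjusted p of 0.0103 (range over 19 alternatives 2.26e-18 to 0.113).

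Nkg7 (chromosome 7, 43437073 to 43438249), which encodes a granule membrane protein of cytotoxic lymphocytes, was at 76.5, 144 and 207 CPM in the residual and 21.0, 30.8, 39.1, 36.6 and 31.9 CPM in the near-absent libraries. The Yy1+/+ libraries had 184, 264, 123 and 187 CPM, so residual Yy1-/- replicate 4 and Yy1-/- Smc3+/- replicate 3 lay within the wild-type range and Yy1-/- replicate 3 below it. Its log2 fold change was 2.29 ± 0.24 SE (edgeR adjusted p = 0.0370). Hmgb3 (chromosome X, 71555918 to 71560676), an X-linked gene for an HMG-box chromatin protein of haematopoietic progenitors, was at 93.4, 106 and 95.6 CPM in the residual and 35.4, 36.2, 40.1, 48.8 and 31.5 CPM in the near-absent libraries, with 264 to 431 CPM in Yy1+/+. Neither class touched the other, and both lay under all wild-type libraries. The log2 fold change of Hmgb3 was 1.38 ± 0.17 SE (edgeR adjusted p = 0.0479).

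Ighm (chromosome 12, 113418558 to 113422730), the constant part of the IgM heavy chain, falls outside the rule for named genes, which leaves out immunoglobulin genes, and is given because it passed the test. It was at 831, 1394 and 1335 CPM in the residual and 112, 216, 362, 182 and 299 CPM in the near-absent libraries. Here the near-absent libraries overlapped the wild-type levels of 199.6 to 494 CPM, and the residual libraries lay above both. The log2 fold change was 2.55 ± 0.32 SE (edgeR adjusted p = 0.0499). Ighm was the single called member of the 15 tested lymphoid-primed progenitor genes (0.0369% called higher over all genes). At an unadjusted p under 0.05, 1 of the 15 was higher and 0 lower (3.73% and 5.16% over all genes). DESeq2 called 1 higher (1.18% over all genes). The median log2 fold change of these lymphoid-primed progenitor genes was 0.29. Flt3, the cytokine receptor of such progenitors, overlapped at 267 to 385 against 206 to 419 CPM (adjusted p = 0.912). The B cell receptor subunit gene Cd79b was at 35.2 to 51.2 against 41.0 to 49.0 CPM (adjusted p = 0.999), and none of the 14 tested B cell genes passed. At an unadjusted p under 0.05, 2 were higher and 1 lower (3.73% and 5.16% over all genes), and DESeq2 called 1 higher (1.18% over all genes).

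Eci1 (chromosome 17, 24426641 to 24439348) encodes a mitochondrial isomerase needed to oxidise unsaturated fatty acids. Its level was 21.5, 25.6 and 22.1 CPM in the residual and 8.30, 9.82, 6.89, 7.98 and 6.89 CPM in the near-absent libraries, against 73.1, 106, 69.4 and 81.5 CPM in Yy1+/+. The 3 classes did not overlap, and the log2 fold change of residual over near-absent was 1.48 ± 0.19 SE (edgeR adjusted p = 0.0499). Of the 41 genes with an adjusted p under 0.1, which include the 12, 4 further ones with products in mitochondria are given here, chosen after their values were seen. Ech1, an isomerase of fatty acid oxidation, was at 37.1, 64.8 and 58.2 CPM in the residual and 13.9, 19.2, 12.5, 17.8 and 17.2 CPM in the near-absent libraries (adjusted p = 0.0592). Cpox, an enzyme of haem synthesis in mitochondria, was at 87.6, 59.1 and 72.0 against 33.0, 32.1, 34.0, 30.3 and 31.5 CPM (adjusted p = 0.0592). Mrps18b, a protein of the small mitochondrial ribosomal subunit, was at 54.4, 51.1 and 51.6 against 27.6, 27.9, 27.0, 26.7 and 25.6 CPM (adjusted p = 0.0592), and Suclg2, a subunit of succinate-CoA ligase, at 23.8, 37.3 and 41.3 against 7.76, 13.2, 9.92, 12.6 and 11 CPM (adjusted p = 0.0593). In all 4 the residual libraries lay wholly above the near-absent ones (3.42% of all genes tested). Their choice by a small adjusted p for the same contrast favours that, so it is no support. The 76 nuclear genes of oxidative phosphorylation as a list had a median log2 fold change of 0.05, and none passed the test. At an unadjusted p under 0.05, 7 of the 76 were higher (3.73% over all genes) and 0 lower. DESeq2 called 1 of the 76 higher (1.18% over all genes).

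YY1 is known to bind a short motif with the core ATGGC, often close to transcription starts, so the promoters of genes that differed between the classes were read. RefSeq stretches of GRCm38.p6 from 250 bases before to 50 bases after a gene's start were searched on both strands for AANATGGC, and 9.83% of 10960 tested genes with such a stretch held it. Of the 18 genes higher in the residual class at an adjusted p under 0.1, a looser threshold chosen after the values were seen, 17 had a stretch and 3 held the motif: Eci1, Ech1 and Clstn1. Of the 23 lower genes, 9 had a stretch and 0 held it. Further motifs were searched in the same stretches: the interferon-stimulated response element, held by 4.06% of all, was in 1 of the 17 higher and 2 of the 9 lower genes, and the GATA motif AGATAA, held by 8.37%, also in 1 and 2. The 4 matches are shown because they lie in genes of the higher set, each as a window of 30 bases, 5′ to 3′ on the strand of the gene, with the motif in capitals. The first is in Eci1 (chr17:24426689-24426718, plus strand), the next 2 in Ech1 (chr7:28825207-28825236 and chr7:28825276-28825305, plus strand) and the last in Clstn1 (chr4:149586463-149586492, plus strand), where the motif is read on the opposite strand.
Eci1: cactgatatccAAGATGGCgctggctgctg
Ech1 upstream: tgcccttagtaAAGATGGCgaactaggtgg
Ech1 near the start: tgcccttgaccAACATGGCgaacgttcgtg
Clstn1: agagcgccgccGCCATCTTagccgccgccg
Counted from the start of the RefSeq stretch's transcript, which lies downstream of the GENCODE gene start in Eci1 and Ech1, the match in Eci1 begins at base 18, those in Ech1 at bases -120 and -51, and that in Clstn1 at base 7. Clstn1, which encodes the membrane protein calsyntenin 1, was at 13.4, 6.92 and 10 CPM in the residual and 1.27, 3.14, 1.11, 1.82 and 0.922 CPM in the near-absent libraries (adjusted p = 0.0946). Letters that match say nothing by themselves about whether the factor binds there, and 4 of the 6 genes higher past the test with adjusted p under 0.05 (Sfxn1, Rhag, Nkg7 and Hmgb3) had a stretch with no match.

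Of the 6 genes lower in the residual class, Zbp1 and Iigp1 are on the list of interferon-stimulated genes. Zbp1, a sensor of Z-form nucleic acids induced by interferon, was at 23.0, 14.2 and 7.96 CPM in the residual and 115, 73.5, 37.8, 29.9 and 25.4 CPM in the near-absent libraries, against 17.8, 11.6, 16.7 and 18.3 CPM in Yy1+/+. The residual and wild-type libraries overlapped, and every near-absent library lay above both. The log2 fold change was -2.18 ± 0.26 SE (edgeR adjusted p = 0.0479). Iigp1, an interferon-inducible GTPase that acts on the vacuoles of parasites, was at 45.4, 28.9 and 12.1 CPM in the residual and 442, 201, 55.2, 71.0 and 49.7 CPM in the near-absent libraries, with 68.2 to 149 CPM in Yy1+/+. Yy1-/- replicates 1 and 2 were far above the other near-absent libraries, and the lowest of those others was just above the highest residual one. Its log2 fold change was -2.74 ± 0.33 SE (edgeR adjusted p = 0.0479).

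Cd86, a costimulatory ligand on antigen-presenting cells, was at 9.53, 9.93 and 5.19 CPM in the residual and 42.4, 36.4, 17.6, 16.9 and 11.5 CPM in the near-absent libraries, with 10.2 to 15.8 CPM in Yy1+/+. The classes did not overlap, and the log2 fold change was -1.82 ± 0.23 SE (edgeR adjusted p = 0.0479). Ckb, Gbp6 and Gm4951 passed the test although their libraries overlapped, so they fall outside the rule for named genes. Ckb, which encodes a creatine kinase, was at 16.5, 23.8 and 6.74 against 141, 112, 27.5, 44.5 and 23.6 CPM, and Yy1-/- Smc3+/- replicate 4 in the near-absent class lay just under residual Yy1-/- replicate 4. Gbp6, a guanylate-binding protein induced by interferon, was at 23.1, 13.4 and 7.71 against 93.0, 76.2, 20.4, 32.1 and 26.2 CPM, and the predicted gene Gm4951 at 18.9, 10.2 and 4.02 against 133, 81.8, 20, 22.3 and 15.2 CPM. Their log2 fold changes were -2.47, -2.02 and -2.61 (edgeR adjusted p = 0.0479, 0.0499 and 0.0479). Among the 8 libraries all 6 had their highest levels in Yy1-/- replicates 1 and 2, the libraries with the most macrophage RNA. Without replicate 1 and without replicate 2 the log2 fold changes were -1.98 and -2.27 for Zbp1, -2.36 and -2.88 for Iigp1, -1.73 and -1.82 for Cd86, -2.36 and -2.50 for Ckb, -1.92 and -2.03 for Gbp6 and -2.38 and -2.69 for Gm4951. No adjusted p of these 12 fits was under 0.05, as was also the case for the 6 higher genes.

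In the Yy1-/- Smc3+/- libraries alone, which hold neither of those 2, the log2 fold changes of the 6 lower genes were -1.95 for Zbp1, -2.26 for Iigp1, -1.54 for Cd86, -2.23 for Ckb, -1.75 for Gbp6 and -2.23 for Gm4951. That fit sets 1 library against 3, takes the spread from the 3, and gave adjusted p from 0.173 to 0.546 for these genes. The part of macrophage RNA in the 6 differences was not tested. With the level of Y-linked genes as a further term, an alternative added after the sex-linked reads were seen, 5 genes were higher and 0 lower past the threshold, against 854 lower at an unadjusted p under 0.05. Sfxn1, Rhag and Nkg7 kept their call (adjusted p = 0.0374, 0.0103 and 0.0103), and the other 9 had adjusted p of 0.054 or 0.0635 at fold changes close to those without the term, such as -1.79 for Cd86, -2.43 for Ckb, 2.56 for Ighm and 1.39 for Hmgb3 on the log2 scale.

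Genes were also described by lists for cell types and processes. The rule for named genes gives the called members of a list or those with the highest mean level, and most other members named below were chosen after their values were seen. Of the lists in the plot of list medians, erythroid genes had the highest median difference. Of 34 listed genes 33 were matched and tested, and none passed at an adjusted p under 0.05 with edgeR (smallest 0.1104). At an unadjusted p under 0.05, 17 of the 33 were higher and 0 lower (3.73% and 5.16% over all genes), and DESeq2 called 12 higher (1.18% over all genes). In 16 the residual libraries lay wholly above the near-absent ones, a pattern seen in 3.42% of all genes tested. The median log2 fold change of the 33 was 3.33, against -0.0037 over all 16272 genes. That median was 2.22 with a filter of 1 CPM in 3 libraries, 1.93 with no genotype term and 0.90 with limma on log2(TPM + 1), a scale that understates changes of low genes. The filter on low counts keeps genes that are high in 1 class alone, so these counts describe the members that were tested.

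Gata1 and Klf1 encode the main transcription factors of the erythroid lineage. Gata1 was at 26.3, 22.4 and 21.3 CPM in the residual and 3.75, 5.64, 5.71, 7.84 and 2.31 CPM in the near-absent libraries, with 67.2, 37.2, 49.7 and 49.3 CPM in Yy1+/+ (edgeR adjusted p = 0.110, at a log2 fold change of 2.22 ± 0.38 SE). Klf1 was at 38.8, 17.7 and 24.2 CPM in the residual and 0.786, 0.0197, 2.20, 0.466 and 0.971 CPM in the near-absent libraries, with 51.7 to 90.4 CPM in Yy1+/+ (adjusted p = 0.112). For both genes the 3 classes were apart, with the residual libraries in the middle. Among genes of the red cell itself, Car1, the carbonic anhydrase of early erythroid cells, was at 199.6, 39.3 and 126 CPM in the residual libraries. In the near-absent libraries it was at 0, 0, 4.62, 0.256 and 0 CPM, so that 3 of the 5 had 0 counts, and in Yy1+/+ at 254 to 738 CPM. Ermap, a red cell membrane protein, was at 14.3, 9.71 and 9.26 against 0, 0, 0.327, 0.628 and 0 CPM, and Rhd, the Rh blood group protein, at 13.3, 8.70 and 5.85 against 0, 0.532, 0.610, 0.815 and 0.0971 CPM (adjusted p = 0.180, 0.160 and 0.231 for Car1, Ermap and Rhd).

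Globin and late membrane genes did not follow the same order throughout. Hba-a1, an alpha globin gene with a near-identical copy that can share its reads, was at 60.6, 43.4 and 26.6 CPM in the residual and 1.09, 0.237, 73.8, 1.51 and 0.0971 CPM in the near-absent libraries. Yy1-/- Smc3+/- replicate 1, a near-absent library, had the highest level of all, so the classes overlapped (adjusted p = 0.716), and Yy1+/+ had 4.07 to 21.5 CPM. Slc4a1, the anion exchanger of mature red cells, was at 4.31, 5.11 and 1.75 CPM in the residual and 0, 0, 0.196, 0 and 0 CPM in the near-absent libraries, and at 0.985, 0, 0.0220 and 0 CPM in Yy1+/+. There the residual libraries were above the wild type as well. Epor, the erythropoietin receptor, overlapped at 14.8, 8.27 and 10.9 against 5.48, 20.2, 2.55, 5.08 and 1.02 CPM (adjusted p = 0.817), and so did Tfrc, the transferrin receptor, at 78.4 to 121 against 52.9 to 108 CPM (adjusted p = 0.642).

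Of the members with the highest mean over the 8 libraries, Car2, a second carbonic anhydrase, was at 404, 223 and 231 against 103, 131, 269.5, 237 and 115 CPM, all under the 1194 to 1790 CPM of Yy1+/+, and Nfe2, a factor shared with megakaryocytes, at 238 to 278 against 209.6 to 273 CPM. The classes overlapped for both. The summed level of the 33 genes was 1621, 1064 and 1152 CPM in the residual libraries, 633, 685, 1017, 730.1 and 567 CPM in the near-absent and 2857 to 4139 CPM in the Yy1+/+ libraries. The sums of the 2 classes did not overlap, but Yy1-/- Smc3+/- replicate 1 came close. In the Yy1-/- libraries alone 20 of 32 erythroid genes had an unadjusted p under 0.05 in the higher direction (3.10% over all genes in that fit), and the median was 3.46. The median was 1.59 in the Yy1-/- Smc3+/- libraries alone, which hold a single residual library. Without Yy1-/- replicate 1 the count was 15 of 33 (3.84% over all genes in that fit) and the median 2.62. Without replicate 2 the count was 15 of 33 (4.26% over all genes in that fit) and the median 2.67.

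**Figure D3:**
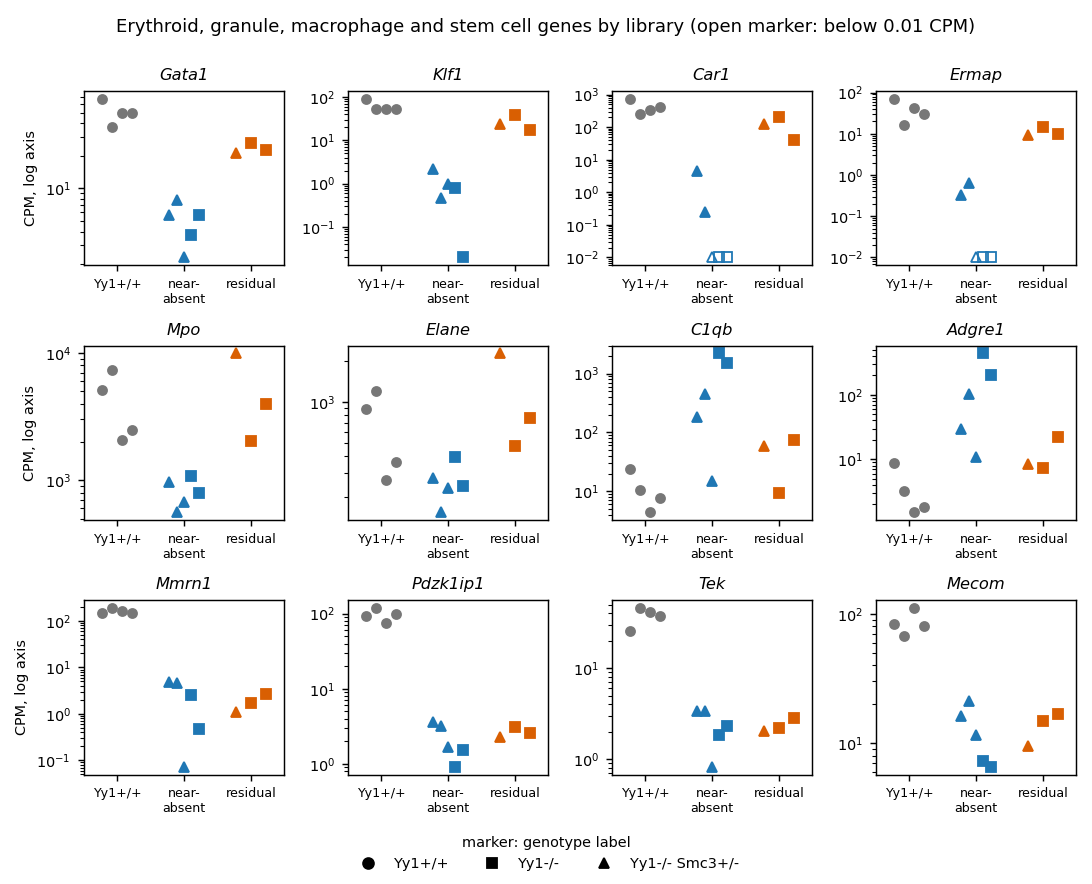
Erythroid (Gata1, Klf1, Car1, Ermap), granule (Mpo, Elane), macrophage (C1qb, Adgre1) and stem cell genes (Mmrn1, Pdzk1ip1, Tek, Mecom) in every library, as CPM scaled with TMM factors on log axes, with colours and marker shapes as for the genes past the test and open markers below 0.01 CPM. The residual libraries lie between both other classes for the 4 erythroid genes, and among the near-absent libraries for the 4 stem cell genes.

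Megakaryocyte genes, which share Gata1 and Nfe2 with the erythroid list, had a median of 0.21 over 25 tested members, with 0 called by edgeR. At an unadjusted p under 0.05, 4 were higher and 1 lower (3.73% and 5.16% over all genes), and DESeq2 called 1 higher (1.18% over all genes). Plek, a platelet signalling protein, was at 96.4 to 168 CPM in the residual and 114 to 206 CPM in the near-absent libraries, and Rap1b, a small GTPase of platelets, at 276 to 328 against 268 to 657 CPM. Both overlapped.

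Stem cell genes were low in both classes. Of 41 tested members none passed, DESeq2 called 0, and the median log2 fold change was 0.13. At an unadjusted p under 0.05, 2 were higher and 1 lower (3.73% and 5.16% over all genes). The median was 0.48 in the Yy1-/- libraries alone and -0.25 in the Yy1-/- Smc3+/- libraries alone, which hold a single residual library. That difference was not tested for the list. The summed level was 1841 to 2228 CPM in the residual, 1697 to 2149 CPM in the near-absent and 4620 to 5625 CPM in the Yy1+/+ libraries. Mecom, a transcription factor of stem cells, was at 14.8, 16.9 and 9.56 CPM in the residual and 7.31, 6.57, 16.3, 21.2 and 11.6 CPM in the near-absent libraries, with 67.7 to 111 CPM in Yy1+/+ (adjusted p = 0.870). Pdzk1ip1, a membrane protein of stem cells, was at 3.06, 2.55 and 2.26 against 0.913, 1.54, 3.55, 3.17 and 1.68 CPM, with 75.1 to 119 CPM in Yy1+/+ (adjusted p = 0.836). Tek, the angiopoietin receptor, was at 2.21, 2.84 and 2.06 against 1.83, 2.29, 3.36, 3.40 and 0.825 CPM, and its ligand gene Angpt1 at 75 to 115 against 63.5 to 140.2 CPM (adjusted p = 0.988 and 0.993). In each of these genes the residual libraries lay among the near-absent ones and under every wild-type library. Mmrn1, multimerin 1, was at 1.67, 2.72 and 1.09 against 2.51, 0.473, 4.93, 4.54 and 0.0728 CPM, while Yy1+/+ had 147 to 189 CPM. The Hox genes had a median of 0.09 over 13 tested members of 27 listed, and Hoxa9 was at 42.3 to 60.2 against 34.2 to 50.3 CPM, with 82.5 to 188 CPM in Yy1+/+ (adjusted p = 0.503).

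The genes that were lowest against wild type in the near-absent libraries give another view of the same contrast. It is a description with no test, because these genes were chosen on the near-absent and Yy1+/+ levels. At least 20 CPM on average in Yy1+/+ and under 10% of that in the near-absent class was met by 99 tested genes, with a median of 5.69% of wild type in the near-absent libraries. In the residual libraries their median was 10.7% (quartiles 4.84% and 18.8%), and 52 of the 99 reached 10%. For Yy1 itself, on the TMM scale, the residual class held 19.5% of the wild-type mean, and 22 of the 99 genes were at or above that share. The residual libraries lay wholly above the near-absent ones in 34 and wholly below in 1, where all genes tested gave 3.42% and 2.11%, and the choice of genes low in the near-absent class favours the first. The highest shares were those of erythroid genes, with 59.7% for Rhag, 45.9% for Gata1 and 43.4% for Klf1, while Pdzk1ip1 and Mmrn1 were at 2.71% and 1.13%. As3mt, an arsenic methyltransferase and the next gene by p among the higher ones, had 11, 15.8 and 17.4 CPM in the residual and 2.77, 4.28, 4.25, 5.10 and 3.83 CPM in the near-absent libraries, or 16.5% and 4.54% of wild type, and did not pass the test (adjusted p = 0.0592).

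Interferon-stimulated genes leaned the other way. Of 53 tested members 2, Zbp1 and Iigp1, were lower in the residual class past the threshold (0.0369% over all genes). At an unadjusted p under 0.05, 38 of the 53 were lower and 0 higher (5.16% and 3.73% over all genes), and DESeq2 called 28 lower (1.74% over all genes). In 13 the residual libraries lay wholly below the near-absent ones (2.11% of all genes tested). The median log2 fold change was -0.77. Parp12, an interferon-induced ADP-ribosyltransferase, was at 69.0, 65.6 and 49.4 CPM in the residual and 168, 146, 89.3, 94.9 and 73.0 CPM in the near-absent libraries with no overlap (edgeR adjusted p = 0.0592). Irf7, which amplifies type I interferon, was at 75, 62.6 and 45.4 against 267, 191, 120.5, 127 and 69.7 CPM and overlapped through Yy1-/- Smc3+/- replicate 4 (adjusted p = 0.0755).

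Ifi27l2a, an interferon-induced gene, was at 29.4, 37.0 and 22.6 CPM in the residual and 304, 190.4, 41.5, 64.5 and 54.0 CPM in the near-absent libraries (adjusted p = 0.112). All 8 were above the 4.22 to 7.38 CPM of Yy1+/+. Gbp2, a guanylate-binding protein, was at 66.6, 63.8 and 46.9 against 454, 226, 113, 86.4 and 71.9 CPM with 94.4 to 132 CPM in Yy1+/+ (adjusted p = 0.179). The mean of the near-absent class was above that of Yy1+/+ in 43 of the 53 genes, and that of the residual class in 22. In the Yy1-/- Smc3+/- libraries alone 16 of the 53 were lower at an unadjusted p under 0.05, against 4.05% of all genes in that fit, and the median was -0.46. In the Yy1-/- libraries alone 32 were lower (6.04% over all genes in that fit) and the median was -0.89. The summed level was 6890, 6378 and 5508 CPM in the residual and 12570, 8848, 6849, 6331 and 6298 CPM in the near-absent libraries, so the sums overlapped.

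Lists of antigen presentation and of macrophages had medians below 0 as well, with the highest levels in Yy1-/- replicates 1 and 2. Among 11 genes of MHC class II presentation none passed, and the median was -1.25. At an unadjusted p under 0.05, 7 were lower (5.16% over all genes), and DESeq2 called 5 lower (1.74% over all genes). H2-Ab1, a class II chain, was at 145, 185 and 129 CPM in the residual and 1048, 404, 329, 209 and 225 CPM in the near-absent libraries, with 205 to 471 CPM in Yy1+/+ (adjusted p = 0.231). Cd74, the invariant chain, was at 257, 327 and 390.5 against 1379, 766, 663, 464 and 542 CPM (adjusted p = 0.278). For both, the residual libraries lay under every near-absent library. Cd40, a receptor of antigen-presenting cells, was at 1.78, 2.91 and 0.763 against 43.0, 14.4, 5.36, 4.82 and 4.42 CPM, without overlap and with Yy1-/- replicate 1 far above the rest (edgeR adjusted p = 0.0592, at a log2 fold change of -3.21 ± 0.45 SE).

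Of 34 monocyte, macrophage and dendritic cell genes none passed, 22 were lower and 1 higher at an unadjusted p under 0.05 (5.16% and 3.73% over all genes), and DESeq2 called 8 lower and 1 higher (1.74% and 1.18% over all genes). The median was -1.32. C1qb was at 9.28, 73.2 and 59.6 CPM in the residual and 2202, 1524, 185, 459 and 14.9 CPM in the near-absent libraries, and at 4.42 to 23.7 CPM in Yy1+/+. Yy1-/- Smc3+/- replicate 4 was within the residual range, so the classes overlapped (adjusted p = 0.444). Adgre1, the macrophage antigen F4/80, was at 7.23, 21.9 and 8.49 against 438, 205, 29.5, 102 and 11 CPM (adjusted p = 0.268), and Csf1r, the receptor for the macrophage growth factor, at 42.9, 73.2 and 66.0 against 494, 529, 89.2, 198 and 61.9 CPM (adjusted p = 0.312). Ctss, a lysosomal protease of these cells, was at 135, 129.9 and 144 against 1154, 622, 201, 249.2 and 154 CPM and did not overlap (adjusted p = 0.310). Not all members went this way, and 3 of the 34 had a log2 fold change above 0. The highest level of Ly6c2, another member, was 156 CPM in the residual and 45.0 CPM in the near-absent libraries, and 221 CPM in Yy1+/+. None of the 34 markers was at 0 in all libraries of a class. The summed level was 1383, 1661 and 1865 CPM in the residual and 11110, 7823, 1887, 3032 and 1419 CPM in the near-absent libraries, with 648 to 1303 CPM in Yy1+/+. In the Yy1-/- libraries alone 26 of the 34 genes were lower at an unadjusted p under 0.05 (6.04% over all genes in that fit) and the median was -2.40. In the Yy1-/- Smc3+/- libraries alone 1 was lower (4.05% over all genes in that fit) and the median was -0.42.

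Granule genes of early neutrophil progenitors differed among themselves. Mpo, myeloperoxidase, was at 2038, 3972 and 9898 CPM in the residual and 1081, 789.6, 970.2, 562 and 680.0 CPM in the near-absent libraries, with 5099, 7382, 2063 and 2469 CPM in Yy1+/+ (edgeR adjusted p = 0.0842, at a log2 fold change of 2.67 ± 0.43 SE). Elane, neutrophil elastase, was at 475, 758 and 2283 against 394, 240.0, 276, 154 and 233 CPM, and Prtn3, proteinase 3, at 735, 912 and 1661 against 605, 347, 418, 283 and 447 CPM (adjusted p = 0.207 and 0.203). Mpo, Elane and Prtn3 were without overlap and highest in Yy1-/- Smc3+/- replicate 3. Ctsg, cathepsin G of the same granules, was at 838, 858 and 1621 against 1175, 737, 536, 446 and 610.0 CPM and overlapped (adjusted p = 0.645), with a log2 fold change of -0.16 within Yy1-/- and 1.63 within Yy1-/- Smc3+/-. Of 30 tested neutrophil genes none passed, and the median was 0.13. At an unadjusted p under 0.05, 3 were higher and 1 lower (3.73% and 5.16% over all genes), and DESeq2 called 3 higher (1.18% over all genes). The median of this list was 1.61 in the Yy1-/- Smc3+/- libraries alone and -1.38 in the Yy1-/- libraries alone, a difference that was not tested for the list. Lyz2, a lysozyme gene that macrophages share, was at 176, 344 and 417 against 4239, 2777, 367, 726 and 261 CPM, with Yy1-/- replicates 1 and 2 highest.

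Nkg7 belongs to the list of T, NK and innate lymphoid genes, most of whose other members were at low levels. Of 30 tested T, NK and innate lymphoid genes, Nkg7 was called higher (0.0369% over all genes), and the median was 0.83. At an unadjusted p under 0.05, 9 were higher and 0 lower (3.73% and 5.16% over all genes), and DESeq2 called 5 higher (1.18% over all genes). Id2, a factor of innate lymphoid cells that other cells also express, and Lck, a T cell kinase, had the highest means beside Nkg7. Id2 was at 87.7, 68.3 and 86.0 CPM in the residual and 142, 107, 51.4, 33.2 and 59.9 CPM in the near-absent libraries, and Lck at 33.2, 32.7 and 21.7 against 8.07, 11.3, 26.2, 41.9 and 48.0 CPM. Both overlapped (adjusted p = 0.993 and 0.770), and their fold changes had opposite signs in the 2 genotypes. Cd2, an adhesion receptor of T cells, was at 4.08, 7.38 and 7.60 CPM in the residual and 2.33, 0.552, 1.37, 1.68 and 2.96 CPM in the near-absent libraries (adjusted p = 0.281), and Cd3g, a chain of the T cell receptor complex, at 8.61, 9.34 and 7.86 against 6.32, 2.54, 1.35, 3.61 and 5.44 CPM (adjusted p = 0.550). Il2rb, an interleukin receptor chain of NK and T cells, was at 8.55, 24.8 and 15.3 against 2.41, 6.13, 2.31, 7.29 and 6.87 CPM (adjusted p = 0.334). Cd3e, another chain of that complex, overlapped at 6.61, 8.70 and 7.09 against 2.99, 0.671, 0.850, 1.84 and 7.26 CPM (adjusted p = 0.587). In 6 of the 30 tested members, Nkg7, Cd2, Cd3g and Il2rb among them, the residual libraries lay wholly above the near-absent ones (3.42% of all genes tested). Cd2 and Cd3g were under 1 CPM in every Yy1+/+ library. The summed level of the list was 349.7, 423.5 and 470.9 CPM in the residual and 212.0 to 282 CPM in the near-absent libraries, with 255 to 525 CPM in Yy1+/+. Nkg7, already called for its difference, made up 76.5, 144 and 207 CPM of the residual sums and 21.0 to 39.1 CPM of the near-absent ones.

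**Figure D4:**
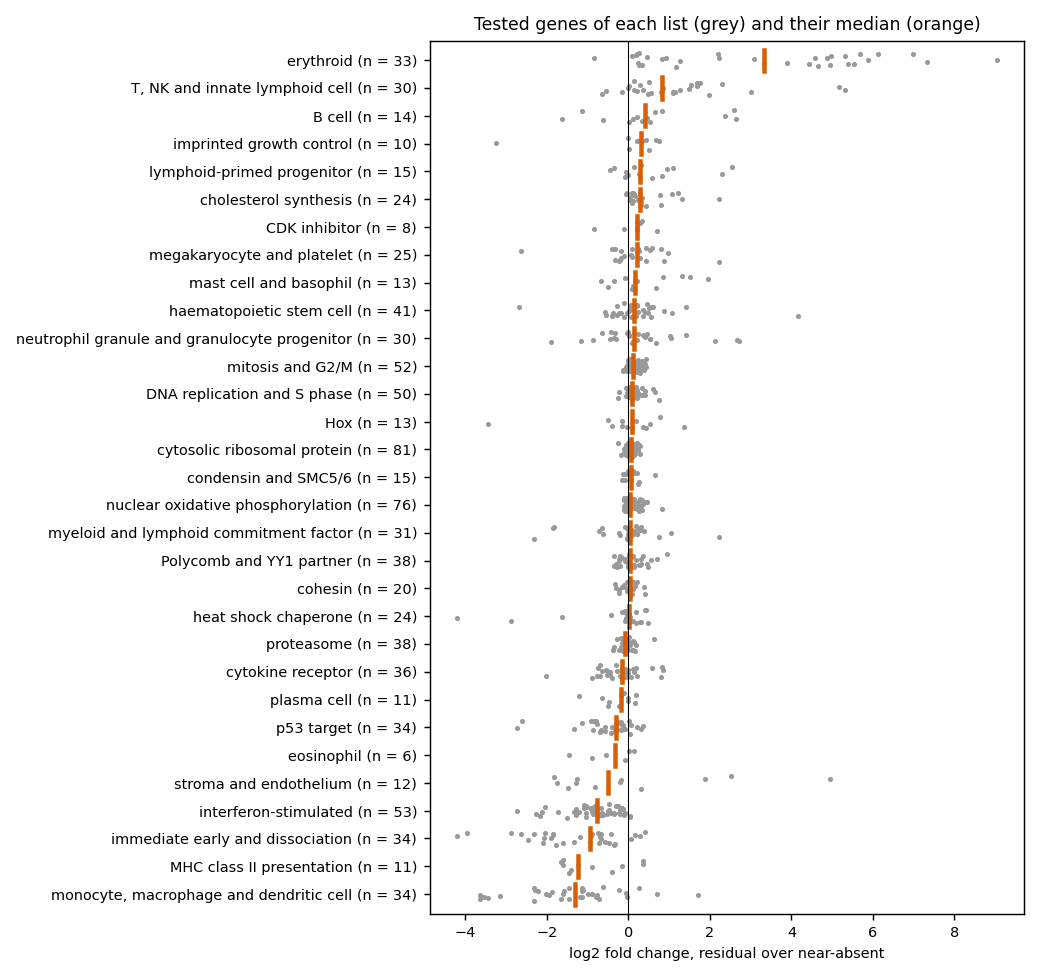
Log2 fold change of residual over near-absent for the tested genes of 31 lists (grey points, spread vertically only to keep them apart) and the median of each list (orange bar), on a linear axis. Erythroid genes have the highest median, 3.33, and monocyte, macrophage and dendritic cell genes the lowest, -1.32.

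No gene of the p53 response, of the cell cycle or of the chromatin complexes that work with YY1 passed the test. Of 34 p53 target genes none passed, 11 were lower and 0 higher at an unadjusted p under 0.05 (5.16% and 3.73% over all genes), DESeq2 called 6 (1.74%), and the median was -0.30. That median was -0.51 in the Yy1-/- libraries alone and -0.14 in the Yy1-/- Smc3+/- libraries alone, which hold a single residual library. Rps27l, the member with the highest mean, was at 217 to 278 CPM in the residual and 223 to 411 CPM in the near-absent libraries and overlapped (edgeR adjusted p = 0.871). Cdkn1a, the p53-induced cell cycle inhibitor p21, was at 63.2, 70.2 and 72.9 CPM in the residual and 176, 150.2, 119, 69.5 and 84.0 CPM in the near-absent libraries (adjusted p = 0.330). Phlda3, another p53 target, was at 30.3, 33.3 and 29.4 against 61.2, 52.8, 47.5, 32.7 and 40.6 CPM, with 6.38 to 7.75 CPM in Yy1+/+ (adjusted p = 0.296). Cdkn1a and Phlda3 overlapped, and all 8 libraries were above wild type for Phlda3. Of 34 immediate early and dissociation genes 11 were lower and 1 higher at an unadjusted p under 0.05 (5.16% and 3.73% over all genes). None passed, DESeq2 called 4 lower (1.74%), and the median was -0.94. Without Yy1-/- replicate 2 the lower count was 6 (4.25% over all genes in that fit), and without Yy1-/- replicate 1 it was 23 (5.97%). Jun was at 276, 121 and 257 against 64.6, 997, 1435, 718 and 573 CPM (adjusted p = 0.624), with Yy1-/- replicate 1 below all residual libraries.

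Of 52 mitosis genes none passed, 9 were higher at an unadjusted p under 0.05 (3.73% over all genes), DESeq2 called 0, and the median was 0.12. Ccnb1, cyclin B1, was at 339, 345 and 358 CPM in the residual and 269, 286, 277, 295 and 287 CPM in the near-absent libraries, with 132 to 174 CPM in Yy1+/+ (adjusted p = 0.385). Rrm2, a subunit of ribonucleotide reductase, was at 317, 334 and 333 against 237, 183, 183, 195 and 244 CPM (adjusted p = 0.203). Both were chosen after their values were seen and were without overlap. In 8 of the 52 mitosis genes the residual libraries lay wholly above the near-absent ones (3.42% of all genes tested). Top2a, the mitosis member with the highest mean, was at 428 to 500.5 against 361 to 500.4 CPM and overlapped (edgeR adjusted p = 0.894). Of 50 replication genes 6 were higher at an unadjusted p under 0.05 (3.73% over all genes) and DESeq2 called 2 higher (1.18%), with a median of 0.09. In 5 of the 50 the residual libraries lay wholly above the near-absent ones (3.42% of all genes tested). Mcm6, the replication member with the highest mean, was at 569.5 to 723 against 554 to 785 CPM and overlapped (edgeR adjusted p = 0.962). Cohesin genes (20 tested, median 0.05), condensin and SMC5/6 genes (15, median 0.06), Polycomb genes and YY1 partners (38, median 0.05) and cytosolic ribosomal protein genes (81, median 0.06) had no member with an unadjusted p under 0.05, and neither edgeR nor DESeq2 called any.

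The class difference was also compared between the 2 genotypes by an interaction term. At an adjusted p under 0.05 it was different for 1 gene (0.00615% of 16272), the immunoglobulin variable gene Igkv10-94, and at an unadjusted p under 0.05 for 1265 genes (7.77%). Igkv10-94 was at 9.86, 20.2 and 0 CPM in the residual and 0, 0, 55.3, 44.7 and 48.4 CPM in the near-absent libraries, so whole groups of libraries were at 0 and the fitted difference is no bound. DESeq2 called 358 genes for this term. The Yy1-/- Smc3+/- arm has a single residual library, so its spread is taken from the others.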

How the data were processed

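The submitters' processing notes name STAR 2.5.2b, RSEM 1.3.0 and the build mm10, and the layout of the deposited tables is that of RSEM. The deposited tables, 1 per library, hold the authors' expected count and TPM per gene, per the file headers; TPM is scaled per transcript length and library. RSEM shares reads between genes, so 6.4% to 7.1% of the expected counts in a table, zeros included, were not whole (tolerance 1e-06), and they were rounded before testing. Of 55487 genes listed, 55094 IDs matched the GENCODE M21 annotation (GRCm38), 300 matched it in another version and 93 did not match.

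The members and gene lists were chosen with earlier results of these data known. Genes were kept by edgeR's filter (minimum count 10, minimum total 15), which left 16272, with Yy1 itself not tested. edgeR 4.0.16 in R 4.3.3 was fitted to the 8 Yy1-/- labelled libraries with TMM scaling, a genotype term and a class term, and tested by quasi-likelihood with Benjamini-Hochberg adjustment at 0.05. Intervals on Yy1 counts are exact Poisson intervals. Named genes were Yy1, Yy2, Smc3, Kit, Ly6a and the genes past the threshold with the largest changes, a class mean of 5 CPM or more on the higher side, no overlap and 1 direction in both genotypes, without sex-linked, immunoglobulin and predicted genes. Fewer than 6 in a direction were filled by the smallest p; 1 gene so named is not reported here. Each list gives its called members or the one with the highest mean, and cell type lists the 3 highest.

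Alternatives were RLE scaling, DESeq2 1.42.0, other filters, no genotype term, all 12 libraries, 1 genotype alone, Yy1 as a continuous term, limma 3.58.1 on log2(TPM + 1), and leaving out each library. The fit on Yy1-/- Smc3+/- libraries alone and the term for Y-linked genes were added after the data were seen. The method was tested on simulated data. Figures were drawn with Python 3.11.15.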

Additional observations from a re-analysis of the deposited data

Results flagged for a closer look

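In groups of 4 or 5 libraries the highest or lowest value was compared with its nearest neighbour, for 84 groups of 21 genes, and 12 had a value far from the others. A rate by chance of about 1 in 20 groups does not apply here. The groups share libraries, and many of the genes were named for a difference between the classes. Yy1-/- Smc3+/- replicate 3, the single residual library among the 4 of its genotype, was far above the other 3 for Rhag (18.3 CPM), Nkg7 (207 CPM), Eci1 (22.1 CPM), Sfxn1 (113 CPM), As3mt (17.4 CPM) and Ighm (1335 CPM). It was also far above them for Yy1 itself (4.37 CPM on the TMM scale), the value that put it in its class, and most of these genes were named for a difference between the classes. Among the Yy1+/+ libraries, replicate 1 stood apart for Rhag (42.0 CPM) and Ighm (494 CPM), and replicate 2 for Sfxn1 (269 CPM) and Yy1 (42.1 CPM on the TMM scale). Among the near-absent libraries, Yy1-/- replicate 1 stood apart for Cd40 (43.0 CPM).

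The class difference of Igkv10-94 differed between the genotypes by the interaction term (edgeR adjusted p = 0.0059). The fitted difference on the log2 scale was -26.42, a value that depends on the prior count because whole groups of libraries had 0 counts, and it is no bound.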

How the results depend on the processing

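All 12 genes past the test kept their direction under the 19 alternatives run, but the counts moved. Genes higher and lower in the residual class numbered 187 and 277 with DESeq2, 40 and 63 with no filter on low counts, 13 and 14 with a filter of 1 CPM in 3 libraries, 1 and 0 with no genotype term (491 higher and 725 lower at an unadjusted p under 0.05), 46 and 33 with all 12 libraries in the fit, 37 and 169 with only the Yy1-/- libraries, 41 and 19 with limma on log2 TPM. With Yy1 as a continuous term 27 genes were lower, with only the Yy1-/- Smc3+/- libraries 2, and with the Y-linked level as a term 0 (854 at an unadjusted p under 0.05). Leaving out 1 library gave 0 to 8 higher and 0 to 61 lower genes, and 1 to 10 genes for the interaction of class and genotype. That interaction was called for 358 genes with DESeq2, 126 with no filter, 0 with all 12 libraries and 6 with limma. RLE scaling moved none of these counts by more than 1 gene. The cause of these shifts was not tested. For the named genes 2015 comparisons with an alternative kept their side of the threshold, 159 crossed to the significant side and 118 away from it, with no reversal of a called gene. No paired analysis was possible because the labels give the groups no shared replicate numbers, and the numbers used here follow accession order. Genes with 0 counts throughout the near-absent libraries of 1 genotype, such as Car1 in Yy1-/-, got fitted log2 fold changes within that genotype, 15.37 for Car1. Such values depend on the prior count, are no bound, and enter the list medians of that fit.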
